A study of Mus musculus with 16 samples.

Results

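The 6 h and 12 h arrays are the middle of a time course of dihydrotestosterone (DHT), the most potent natural androgen, in mouse retroperitoneal fat, a visceral depot at the back of the abdomen. They were picked by their labels, but joining 6 and 12 h into 1 group was proposed with results of these data known. To these times belong 4 of the 16 arrays of the series, 1 from each sex at each time. All mice, the controls included, had been gonadectomised. The DHT groups received 0.1 mg of DHT under the skin 6 or 12 h before the tissue was taken, and the control groups received vehicle (4 arrays, 2 from each sex, which the labels describe with 24 h). The labels used here give no strain, age or number of mice, and describe fat gathered from every mouse in a group, so that 1 array may stand for a pool of animals. Separate animals behind the vehicle arrays of a sex are not stated, and the p-values below then reflect the spread among these arrays alone, part of which may be technical. In bulk tissue a higher or lower level can mean more or fewer cells of a type, or more or less RNA per cell, and the data cannot tell these apart.

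Androgens act through the androgen receptor, a transcription factor that leaves its chaperones when the hormone binds, enters the nucleus and switches genes on or off at hormone response elements in DNA. The glucocorticoid receptor recognises nearly the same DNA elements, and both receptors share target genes. Among those described are the chaperone partner Fkbp5, metallothioneins and brakes on growth signals. Receptor binding was not measured here. Retroperitoneal fat expresses the androgen receptor, and androgens are known to affect fat cell formation and lipid storage in visceral depots. The androgen receptor gene itself was not analysed here, and the glucocorticoid receptor gene Nr3c1 lay under the filter on low signals.

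The arrays were checked first, since the comparison rests on few of them. Male vehicle replicate 2 stood apart: the summed signal of 29 skeletal muscle genes was 468100 there and 35411 to 80359 on the other 7 arrays, and 28 of the 29 genes were highest of the 8 arrays on it. The summed signal of 21 macrophage genes was 8796 there against 30304 to 48777, and Adipoq, the fat cell hormone adiponectin, had a signal of 1946 there against 19206 to 26828. Pearson's r across genes, which are not independent replicates, was 0.590 to 0.658 between it and the other 7 arrays and 0.900 to 0.976 within those 7. The female 12 h array carried exocrine pancreas transcripts, with a summed signal of 146689 over 27 genes against 8719 to 9668 on the other 3 DHT arrays and 4397 to 17013 on the vehicle arrays. The ratios of 3′ to 5′ control signals for Gapdh were 0.801 to 0.957 on vehicle and 0.846 to 0.921 on DHT arrays, so that RNA quality by this measure overlapped. The main comparison is therefore given with all 8 arrays and with the 7 arrays that remain without male vehicle replicate 2, and a log2 difference of that comparison printed with no number of arrays comes from the 7.

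**Figure D1:**
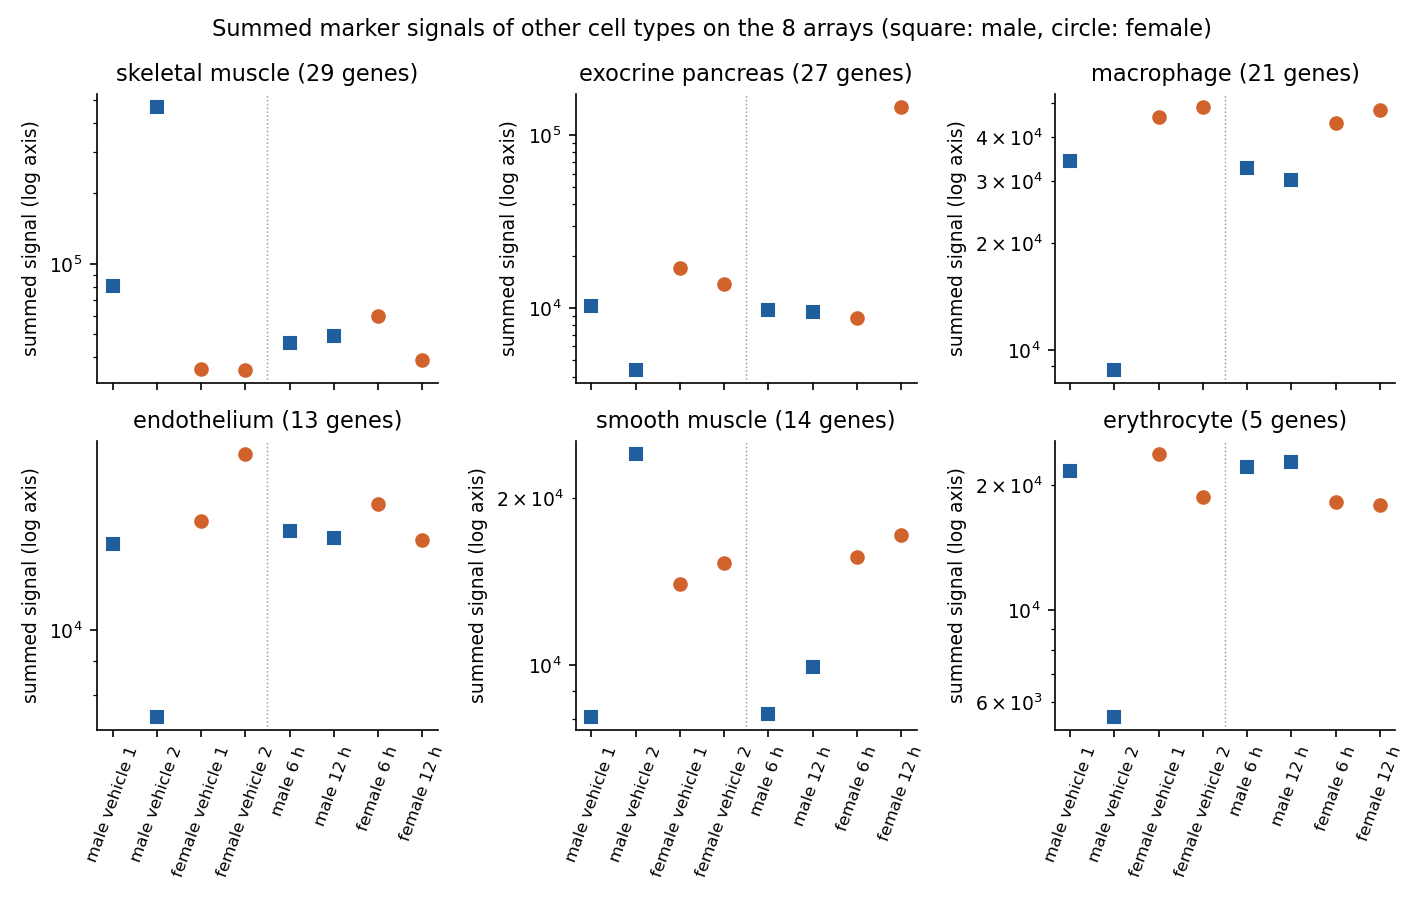
Summed linear signals (log axis) of the markers of 6 other cell types on each of the 8 arrays, with male arrays as squares, female arrays as circles and a dotted line between vehicle and DHT. Male vehicle replicate 2 lies apart for muscle (468100), macrophage (8796) and erythrocyte markers (5539), and the female 12 h array for exocrine pancreas markers (146689).

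Fat taken 6 and 12 h after DHT was compared with vehicle fat to ask which transcripts stood above or below control. The vehicle arrays are labelled with 24 h and none with 6 or 12 h. A difference due to DHT therefore cannot be told apart from one due to the time since injection. Of 4951 genes tested, 2 rose with all 8 arrays (0.0404% of the genes tested), and 0 fell. These were Mt2, which encodes a metallothionein that binds zinc and copper, and Gadd45g, a stress-inducible gene whose protein slows cell division. Without male vehicle replicate 2, 5 genes rose (0.101%) and 0 fell: the same 2 together with Fkbp5, Errfi1 and Cdkn1a. At an unadjusted p under 0.05 there were 100 genes with 8 arrays, 69 higher and 31 lower, and 186 with 7 arrays, 105 higher and 81 lower. The median log2 difference over all genes was 0.05 (8 arrays) and 0.01 (7 arrays), a value that the scaling of each array to a common mean holds near 0. With 8 arrays 54 genes exceeded a log2 difference of 1 and 45 lay under -1, and with 7 arrays 10 and 6 did. All tests are limma's moderated test on log2(signal + 16) with sex as a covariate, two-sided, with p adjusted by Benjamini-Hochberg over all genes tested, a threshold of 0.05 and values after ± that are standard errors unless named SD. With any array other than male vehicle replicate 2 left out, limma called 0 genes (44 to 332 had an unadjusted p under 0.05), although the log2 differences with 1 array left out stayed at 2.22 to 2.61 for Mt2 and 1.70 to 1.94 for Gadd45g. Without male vehicle replicate 2 and a further array it called 1 to 7, with Mt2 among them each time.

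**Figure D2:**
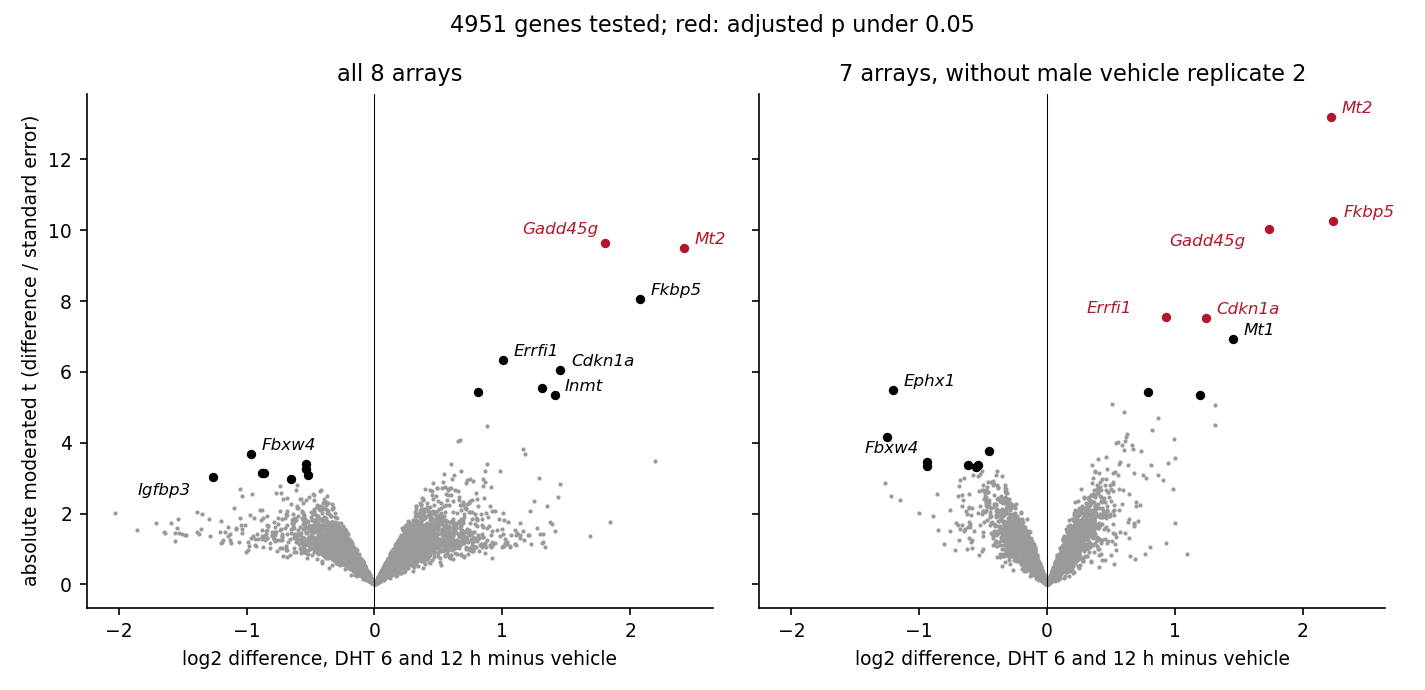
Each dot is 1 of 4951 genes, placed by its log2 difference (6 and 12 h DHT minus vehicle) and by the absolute moderated t, for all 8 arrays (left) and for the 7 arrays without male vehicle replicate 2 (right). Red genes passed the threshold (2 left, 5 right), black genes were named by rule without passing, and the spread of log2 differences is narrower on the right.

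Mt2 had signals of 1945 and 987 on the male vehicle arrays and 1436 and 1642 on the female ones. After DHT it had 7729 at 6 h and 7629 at 12 h in males, and 10010 and 6565 in females. Every DHT array lay far above every vehicle array, and the lowest vehicle value came from the muscle-rich array. The mean went from 1503 ± 402 (SD, n = 4) to 7983 ± 1450 (SD, n = 4), a 5.36-fold rise on the log2(signal + 16) scale (log2 2.42 ± 0.25 with 8 arrays, adjusted p = 0.0329 in limma). With 7 arrays the rise was 4.67-fold (log2 2.22 ± 0.17, adjusted p = 0.0030 in limma). Mt1, its neighbour in the genome and a second metallothionein, had signals of 2526 and 285 in vehicle males, 2536 and 1429 in vehicle females, 5513 and 6812 in DHT males and 6552 and 4996 in DHT females. Its groups did not overlap either, yet it did not pass (log2 2.20 ± 0.63, adjusted p = 0.877 with 8 arrays, and 1.46 ± 0.21, adjusted p = 0.0767 with 7 arrays, both in limma), and its 285 on the muscle-rich array widened the spread of the vehicle group. The remaining tested members of the list of metallothioneins and zinc transport were Mt3 (log2 difference -0.37 ± 0.25 with 7 arrays), Slc30a4 (0.10 ± 0.16), Slc39a1 (-0.33 ± 0.53) and Slc39a4 (-0.01 ± 0.17). With 7 arrays 1 of 6 was thus called, against 0.101% of all genes tested.

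Fkbp5, a co-chaperone that binds steroid receptor complexes through heat shock protein 90, had signals of 714 and 907 in vehicle males and 332 and 552 in vehicle females. With DHT its signals were 2318 at 6 h and 2755 at 12 h in males, and 2454 and 2648 in females. All 4 DHT arrays lay within a narrow band above all vehicle arrays, among which the males were higher. The means were 626 ± 244 (SD, n = 4) and 2544 ± 195 (SD, n = 4). Fkbp5 did not pass with 8 arrays (log2 2.08 ± 0.26, adjusted p = 0.0725 in limma), where the muscle-rich array had its highest vehicle signal, and rose 4.72-fold with 7 (log2 2.24 ± 0.22, adjusted p = 0.00903 in limma). With 7 arrays it was the only called gene among the 14 tested members of the list of steroid receptors and their chaperones (all genes tested: 0.101%). The median log2 difference over those 14 was 0.06 in both fits, and the chaperones Hsp90aa1 (0.16 ± 0.16 with 7 arrays), Hspa8 (0.21 ± 0.14) and Fkbp4 (-0.06 ± 0.13), the close relative of Fkbp5, did not pass.

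Gadd45g had signals of 386 and 357 in vehicle males, 308 and 354 in vehicle females, 1758 at 6 h and 1433 at 12 h in males, and 1165 and 873 in females. The vehicle arrays agreed closely, the muscle-rich one included, and in both sexes the 6 h array was higher than the 12 h array. From a mean of 351 ± 32.6 (SD, n = 4) to 1307 ± 378 (SD, n = 4), it rose 3.50-fold (log2 1.81 ± 0.19 with 8 arrays, adjusted p = 0.0329 in limma), and 3.33-fold with 7 arrays (1.74 ± 0.17, adjusted p = 0.00903 in limma). Cdkn1a, which encodes the cell cycle inhibitor p21, had signals of 421 and 235 in vehicle males, 321 and 400 in vehicle females, 1178 and 999 in DHT males and 962 and 717 in DHT females. Its groups did not overlap, and the lowest vehicle value again came from the muscle-rich array. Cdkn1a did not pass with 8 arrays (log2 1.46 ± 0.24, adjusted p = 0.316 in limma) and rose 2.36-fold with 7 (1.24 ± 0.16, adjusted p = 0.0494 in limma), just inside the threshold. A second Cdkn1a probe set gave no such difference, with mean signals of 355 in vehicle and 353 in DHT fat (log2 -0.02 with 7 arrays).

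Errfi1, an inhibitor that binds and silences the epidermal growth factor receptor, had signals of 852 and 695 in vehicle males and 771 and 862 in vehicle females. With DHT it had 1640 and 1661 in males and 1443 and 1687 in females. The DHT arrays lay close together and above all vehicle arrays. It did not pass with 8 arrays (log2 1.00 ± 0.16, adjusted p = 0.290 in limma), and rose 1.91-fold with 7 arrays (0.93 ± 0.12, adjusted p = 0.0494 in limma). Its second probe set had log2 differences of 0.89 with 8 arrays and 0.81 with 7. In the list of feedback inhibitors of growth factor and cytokine signals Errfi1 was the only call among 13 tested genes with 7 arrays (all genes tested: 0.101%). The median of the list was 0.10. Socs2 (0.46 ± 0.15) and Socs3 (0.46 ± 0.28), inhibitors of cytokine signals, and Dusp1 (-0.02 ± 0.16), a phosphatase of stress kinases, did not pass.

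These 6 genes were followed over the whole series, where 1 array per sex and time gives no error of its own. In males Mt2 went through signals of 2147, 4797, 7729, 7629, 5617 and 4805 at the 6 times in order, and in females through 1262, 3400, 10010, 6565, 5155 and 3374. Fkbp5 went through 829, 1493, 2318, 2755, 2096 and 1606 in males and 515, 1240, 2454, 2648, 1574 and 1102 in females. Both genes were near vehicle level at 1 h and above it at 24 h. Gadd45g was already at 1087 in the male and 794 in the female at 1 h, and Errfi1 at 1604 and 1583, both above all 4 vehicle arrays. These genes were taken from the comparison of 6 and 12 h with vehicle, a choice that favours high values at these times, so that the time of the highest signal is a description. For each of the 6 the highest of the 6 DHT arrays of either sex was the 6 h or the 12 h one, at 6 h for Mt2, Gadd45g and Cdkn1a in both sexes, at 12 h for Fkbp5 and Errfi1 in both, and at 12 h in males and 6 h in females for Mt1.

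**Figure D3:**
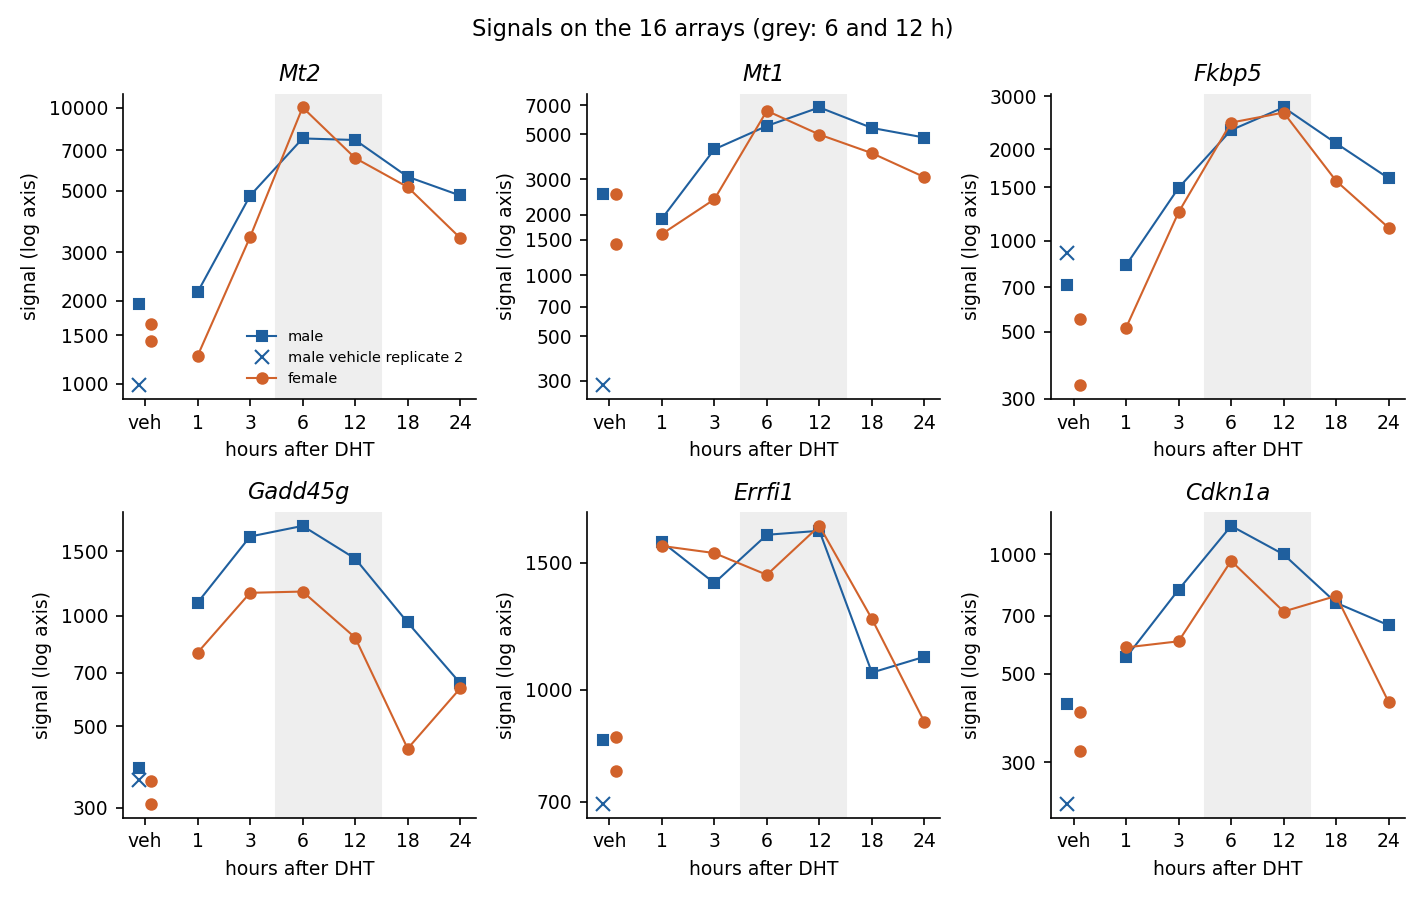
Linear signals (log axis) of 6 genes on all 16 arrays against hours after DHT, with males as blue squares, females as orange circles, male vehicle replicate 2 as a cross, and 6 and 12 h shaded. In both sexes the lines are highest at 6 or 12 h, for example Fkbp5 at 2755 (male) and 2648 (female) at 12 h, while Errfi1 at 1 h (1604 and 1583) is already near its later level.

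In the fit over all time groups, 6 and 12 h were set against the 4 arrays of 1 and 3 h and against the 4 arrays of 18 and 24 h. Neither comparison had a gene past the threshold in limma: 0 of 4951 with 16 arrays (37 and 64 had an unadjusted p under 0.05) and 0 with 15 (98 and 181). Against 1 and 3 h the smallest p among higher genes with 15 arrays belonged to Mt1 (log2 1.32 ± 0.24), Mt2 (1.61 ± 0.29) and Fkbp5 (1.41 ± 0.26), each with an adjusted p of 0.132 in limma, and that among lower genes to Plagl1 (-0.92 ± 0.20, adjusted p = 0.358), a zinc finger gene of cell cycle arrest. Gadd45g (0.16 ± 0.19) and Errfi1 (0.07 ± 0.11) differed little from 1 and 3 h. Against 18 and 24 h the leading genes with 15 arrays were Gadd45g (0.95 ± 0.19), Errfi1 (0.57 ± 0.11) and Slc3a2 (0.53 ± 0.10), a subunit of amino acid transporters, each with an adjusted p of 0.268 in limma, and Mt2 (0.76 ± 0.29) and Fkbp5 (0.70 ± 0.26) had wider errors. Among lower genes the smallest p belonged to Lrg1 (-0.53 ± 0.12), a secreted acute phase protein, Pdzk1ip1 (-0.57 ± 0.14) and Sparc (-0.50 ± 0.13). Hp, the haemoglobin binding protein haptoglobin, followed (-0.48 ± 0.12), all with adjusted p = 0.785 in limma. Against 1 and 3 h Lrg1 was higher (0.57 ± 0.12 with 15 arrays, adjusted p = 0.358 in limma).

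The promoters of the 5 called genes are shown for the 3 whose differences were largest, because hormone and metal response elements are the kind of DNA through which steroid receptors and zinc act on genes. The 250 bases before the start were taken from RefSeq (mouse assembly GRCm38.p6), where the 5 genes have 7 promoters. Capitals mark matches to TGCNCNC on either strand, where N is any base. This pattern is looser than the core of the metal response element, TGCRCNC with R as A or G. GGGAGCA and TGCTCTC in Mt2 and GTGGGCA in Fkbp5 match the looser pattern only. The shares of promoters below are also those of the looser pattern. Fkbp5, which lies on the minus strand, is written in its own 5′ to 3′ direction.
Mt2 (chr8:94172368-94172617, plus strand): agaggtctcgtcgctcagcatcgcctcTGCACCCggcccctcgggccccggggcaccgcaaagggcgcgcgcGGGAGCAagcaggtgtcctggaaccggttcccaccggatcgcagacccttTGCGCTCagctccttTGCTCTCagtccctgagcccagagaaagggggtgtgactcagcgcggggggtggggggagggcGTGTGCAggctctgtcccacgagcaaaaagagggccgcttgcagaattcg
Fkbp5 (chr17:28486150-28486399, minus strand): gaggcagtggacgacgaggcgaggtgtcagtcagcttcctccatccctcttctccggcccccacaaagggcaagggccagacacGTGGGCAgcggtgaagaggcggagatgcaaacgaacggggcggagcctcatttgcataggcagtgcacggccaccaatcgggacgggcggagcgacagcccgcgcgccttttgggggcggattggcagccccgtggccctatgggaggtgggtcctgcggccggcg
Gadd45g (chr13:51846425-51846674, plus strand): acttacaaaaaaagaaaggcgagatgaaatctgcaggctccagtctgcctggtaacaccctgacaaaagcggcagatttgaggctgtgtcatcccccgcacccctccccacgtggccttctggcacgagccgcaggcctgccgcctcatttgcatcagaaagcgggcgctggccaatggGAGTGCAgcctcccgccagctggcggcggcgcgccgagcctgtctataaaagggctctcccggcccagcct
The Mt2 promoter holds 5 matches, which begin 223, 178, 128, 113 and 50 bases before the start, and 0.344% of all 32851 promoters of this length hold 5 or more. Fkbp5 and Gadd45g hold 1 match each, as 44.4% of all promoters hold at least 1, and 4 of the 7 promoters of called genes do. The palindromic steroid element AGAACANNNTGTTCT was found in 0 of the 7 and in 3 of all 32851 promoters (0.00913%), and its repeated unit AGAACA in 0 of the 7 and in 16.1% of all, searched on both strands. The palindrome is too rare, and 7 promoters are too few for its repeated unit, for 0 to show that called genes lack steroid elements. Sequence outside these 250 bases was not searched. These matches are letters in a window and not measured sites.

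A list of 37 genes known as targets of androgen or glucocorticoid response elements held 32 tested genes, and it was drawn up with earlier results of these data known, so that its counts are no independent evidence. It contains all 5 called genes, and 0 of its members fell. With 8 arrays 22 of 32 had positive differences with a median log2 of 0.25 (all genes tested: 56.5% positive, median 0.05), and with 7 arrays 26 of 32 with a median of 0.17 (all genes: 51.8%, 0.01). All 4 DHT signals lay above all 4 vehicle signals for 8 of the 32, against 1.07% of all genes tested, and below them for 0, against 0.707%. With the 3 other vehicle arrays these were 9 higher, against 1.76%, and 1 lower, against 1.6%.

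Cebpd, which encodes a C/EBP factor active at the start of adipogenesis, was among the targets that did not pass, with signals of 852 and 822 in vehicle males, 666 and 777 in vehicle females, 1771 and 1323 in DHT males and 1677 and 1090 in DHT females. Its groups did not overlap, and the 6 h array was higher than the 12 h array in both sexes (log2 0.87 ± 0.18 with 7 arrays, adjusted p = 0.497 in limma). Zbtb16, a zinc finger transcription factor long used as a marker of steroid action, had 1139 and 2134 in vehicle males, 493 and 968 in vehicle females, 1909 and 1986 in DHT males and 1847 and 1288 in DHT females. The muscle-rich array had the highest Zbtb16 signal of all 8, so that its groups overlapped with 8 arrays (0.73 ± 0.32) and not with 7 (0.99 ± 0.24, adjusted p = 0.777 in limma), and a second probe set gave 0.04 with 7. Ddit4, an inhibitor of the growth kinase mTOR, had 634 and 298, 491 and 651 in vehicle males and females, and 964, 1146, 701 and 882 with DHT, again without overlap (0.56 ± 0.17 with 7 arrays, adjusted p = 0.999 in limma). Cdkn1c, a cell cycle inhibitor related to p21, was the 1 member with all DHT arrays below the 3 vehicle arrays (-0.54 ± 0.18). Others, such as Sgk1 (0.17 ± 0.16), Per1 (0.12 ± 0.34), Klf9 (0.16 ± 0.16) and Nfkbia (0.11 ± 0.12), which respond to steroids in many tissues, did not pass. Growth arrest genes as a list were mixed, and the list was chosen with earlier results of these data known. With 7 arrays 2 of 13 tested members were called (Gadd45g and Cdkn1a), against 0.101% of all genes tested. The median was -0.02, and Gadd45a (-0.48 ± 0.21) and Btg1 (0.33 ± 0.14) did not pass.

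The other gene lists covered fat cell identity, lipid and glucose metabolism, mitochondria, matrix, inflammation and further functions. With 7 arrays 21 of the 26 lists held 0 called genes, and their medians lay between -0.32 (4 Wnt antagonists) and 0.14 (18 acute phase genes). With 8 arrays 23 lists held 0 called genes, and their medians ran from -0.23 for oxidative phosphorylation to 0.77 for adipokines and mature fat cell genes. The fits differ by the muscle-rich vehicle array alone.

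The 20 tested adipokine and mature fat cell genes had a median of 0.77 with 8 arrays and 0.04 with 7, where 12 were positive, the range was -0.33 to 0.61 and 0 were called. Adipoq had signals of 26828, 26610 and 19401 on the 3 other vehicle arrays and 24644, 22078, 19206 and 22757 on the DHT arrays, which overlap (-0.15 ± 0.13). Lep, the satiety hormone leptin, overlapped as well, from 1880 to 3064 on those vehicle arrays and from 1523 to 5706 with DHT, the highest being the male 12 h array. Angiotensinogen, Agt (0.61 ± 0.15), the enzyme and adipokine Nampt (0.54 ± 0.14) and the lipid droplet coat gene Plin4 (0.35 ± 0.10) were the 3 with an unadjusted p under 0.05 with 7 arrays, all higher, and did not pass. Agt was highest on the male 12 h array at 3119, and Nampt read 1379 on the muscle-rich array against 400 to 742 on the other 7.

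Among genes of lipid metabolism, medians with 8 and 7 arrays were 0.61 and -0.12 for 13 genes of fatty acid synthesis, 0.33 and -0.10 for 15 of triglyceride synthesis and fatty acid uptake, 0.65 and 0.03 for 12 of lipolysis, and 0.06 and 0.02 for 20 of fatty acid oxidation. Cholesterol synthesis and uptake (13 genes) went from 0.43 to -0.03. In it Msmo1, a sterol demethylating enzyme, had vehicle signals of 143, 82.1, 156 and 131 and DHT signals of 217 to 340. It did not pass (0.68 ± 0.22 with 7 arrays, adjusted p = 0.999 in limma). Its vehicle signals all lay under the filter of 182 on the mean of all 16 arrays. Msmo1 was thus tested only through its DHT signals, and the lack of overlap is no independent support. Lpin1, the phosphatidate phosphatase of triglyceride synthesis (0.38 ± 0.15), and Cpt1a, which admits fatty acids to mitochondria (0.36 ± 0.15), did not pass. The 41 subunits of oxidative phosphorylation had medians of -0.23 and 0.01.

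Glucose uptake, glycolysis and insulin signalling (28 genes) had medians of -0.22 and -0.10. Akt2, the insulin-responsive kinase of fat and muscle, had 4315, 3402 and 2741 on the 3 other vehicle arrays and 3488, 3229, 2181 and 2096 with DHT, lower than these vehicle arrays within each sex (-0.45 ± 0.12 with 7 arrays, adjusted p = 0.881 in limma). Igfbp3, a carrier of insulin-like growth factors, had 428, 257, 362 and 278 on vehicle arrays and 37.8, 131, 203 and 218 with DHT. No DHT value reached the vehicle range, with the lowest on the male 6 h array, and it did not pass (-1.26 ± 0.44 with 7 arrays, adjusted p = 0.999 in limma). Its second probe set had -0.62 with 7 arrays.

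Inflammatory and interferon genes had medians that moved with the muscle-rich array, from 0.54 to 0.14 for 18 acute phase genes and from 0.52 to 0.07 for 26 interferon and antigen presentation genes. The summed macrophage markers on the other 7 arrays were 34258 to 48777 in vehicle and 30304 to 47848 in DHT fat, which overlap. Saa2, a serum amyloid, had 37.0, 98.1, 274 and 300 on vehicle arrays and 182, 224, 657 and 414 with DHT (1.31 ± 0.29 with 7 arrays, adjusted p = 0.604 in limma). Its 37.0 and 98.1 lay under the filter of 182. Saa2 may thus have been tested through its DHT signals, whose height is then no independent support. Within each sex both DHT arrays were above vehicle, while the ranges of the sexes overlapped, as they did for Igtp, an interferon-inducible GTPase with 269 and 244 in vehicle males, 503 and 416 in DHT males, 394 and 444 in vehicle females and 721 and 791 in DHT females (0.79 ± 0.15 with 7 arrays, adjusted p = 0.309 in limma).

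**Figure D4:**
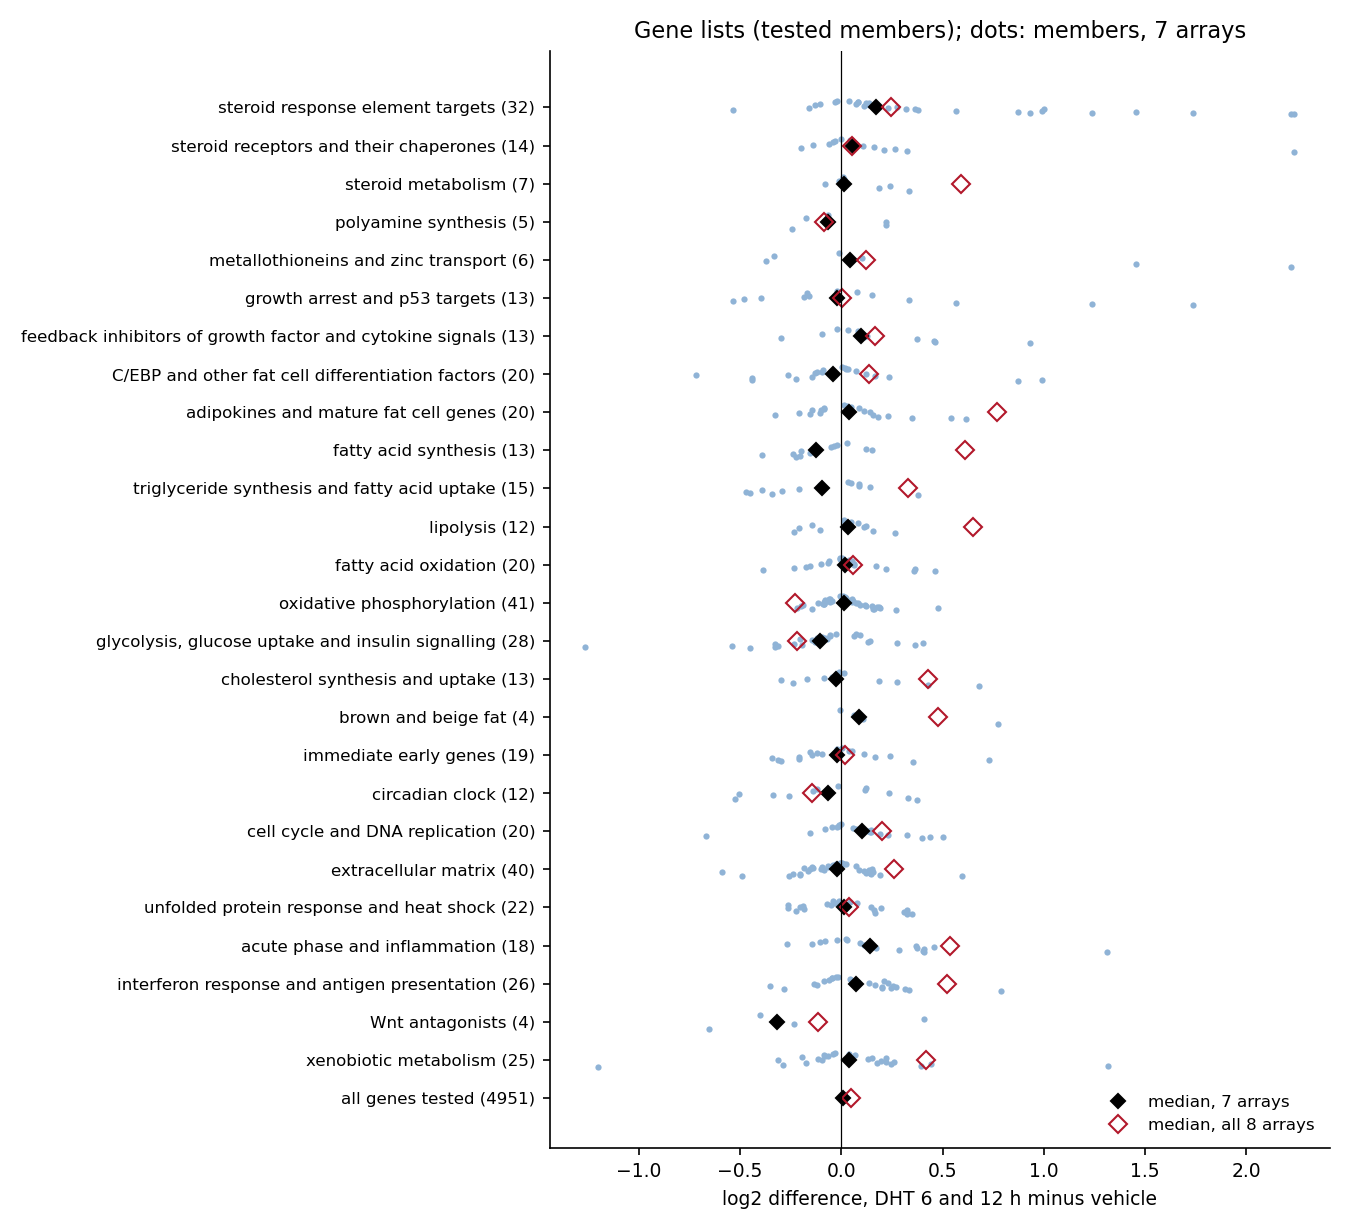
Log2 differences (6 and 12 h DHT minus vehicle) of the tested members of 26 gene lists (dots, 7 arrays), with list medians for 7 arrays (black) and all 8 arrays (open red). Open symbols spread from -0.23 to 0.77 and black ones from -0.32 to 0.17, and single dots beyond 1.5 belong to Mt2, Fkbp5 and Gadd45g.

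Further genes had the smallest p among those that did not pass. Inmt, a methyltransferase of small amines, had 891 and 501 in vehicle males, 146 and 129 in vehicle females, 1163 and 1716 in DHT males and 438 and 577 in DHT females. It was above vehicle on all 4 DHT arrays within its sex, with a higher level in males throughout (1.32 ± 0.26 with 7 arrays, adjusted p = 0.371 in limma). Rnf20, a ubiquitin ligase for histone H2B, had 164 and 154, 318 and 402 in vehicle males and females and 543 to 667 with DHT, without overlap (1.20 ± 0.22 with 7 arrays, adjusted p = 0.309 in limma), yet a second probe set, with mean signals of 205 and 188, gave 0.09 with 7 arrays. Among lower genes, Ephx1, the microsomal epoxide hydrolase, had the smallest p with 7 arrays (-1.20 ± 0.22, adjusted p = 0.309 in limma). Its signals were 963, 201 and 300 on those vehicle arrays, 480 and 307 in DHT males and 99.2 and 105 in DHT females, and with 8 arrays, where the muscle-rich array had 101, the difference was -0.45 ± 0.63.

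Fbxw4, an F-box protein, led the lower genes with 8 arrays (-0.96 ± 0.26, adjusted p = 0.877 in limma), with 551 to 741 on vehicle arrays, 475 and 398 at 6 h and 228 and 252 at 12 h, and its second probe set had -0.25 with 8 arrays. The endothelial adhesion molecule Pecam1 had 286 to 377 on vehicle arrays and 169 to 267 with DHT (-0.54 ± 0.16), and the vascular growth factor Vegfa, made by fat cells among others, had 580 to 734 and 379 to 514 (-0.53 ± 0.16), both with 8 arrays and an adjusted p of 0.877 in limma. The 13 endothelial markers together did not follow Pecam1, with a median of 0.12 and -0.07 with 8 and 7 arrays and 0 called. Apod (-0.88 ± 0.28), a lipid-binding apolipoprotein, Tarbp2 (-0.87 ± 0.27), a partner of Dicer, Pbrm1 (-0.52 ± 0.17), a chromatin remodelling subunit, and Pfn1 (-0.65 ± 0.22), an actin-binding protein, completed the 8 lower genes with the smallest p with 8 arrays, and none passed. The 3 other probe sets of Pbrm1 had -0.25, -0.21 and 0.10 with 8 arrays. Pspn, a neurotrophic factor (-1.25 ± 0.30), Cbr1, a carbonyl reductase (-0.62 ± 0.18), and Plagl1 (-0.55 ± 0.17) joined them with 7 arrays. Plagl1 reversed its sign with the muscle-rich array (0.21 ± 0.63), which had a signal of 24.8 against 331 to 496 on the other vehicle arrays. Its second probe set was negative in both fits, at -0.37 with 8 arrays and -0.66 with 7.

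The 6 h and 12 h arrays were also taken apart, with 2 DHT arrays at each time. Against 4 vehicle arrays limma called 0 genes at 6 h and at 12 h (34 and 54 at an unadjusted p under 0.05). Against 3 vehicle arrays Mt2 (log2 2.38 ± 0.19, adjusted p = 0.0165) and Gadd45g (1.91 ± 0.19, adjusted p = 0.0393) rose at 6 h (0.0404% of genes tested), and Mt2 (2.07 ± 0.19, adjusted p = 0.0437) rose at 12 h (0.0202%), all in limma. Leaving out any other array of the groups compared gave 0 genes at either time (19 to 69 at 6 h and 27 to 101 at 12 h had an unadjusted p under 0.05). The difference between the times themselves gave 0 calls in limma, both with 8 arrays (21 had an unadjusted p under 0.05) and with 7 (129). For Mt2 it was -0.31 ± 0.20 (12 h minus 6 h, 7 arrays, 95% interval -0.79 to 0.16), for Gadd45g -0.35 ± 0.20 (-0.83 to 0.13) and for Fkbp5 0.18 ± 0.30 (-0.52 to 0.88).

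Tmem70, an assembly factor of the mitochondrial ATP synthase, had the smallest p between the times. It had 1823 and 1753 on the 6 h arrays, 641 and 692 on the 12 h arrays and 649 to 735 on the vehicle arrays. Both sexes were high at 6 h and at vehicle level at 12 h (-1.40 ± 0.17 with 7 arrays, adjusted p = 0.343 in limma), while 1 and 3 h read 1124 and 776 in males and 505 and 445 in females. Fmod, a collagen-binding matrix protein, had 232 and 497 at 6 h and 63.5 and 149 at 12 h (-1.64 ± 0.23 with 7 arrays, adjusted p = 0.462 in limma), with 4618 on the muscle-rich array and 186 to 481 on the other vehicle arrays. Gpd1, the glycerol phosphate dehydrogenase that links glycolysis to triglyceride synthesis, had 16810 and 12480 at 6 h and 10461 and 6490 at 12 h (-0.81 ± 0.19), and Acly, which supplies acetyl groups for fatty acid synthesis, 15955 and 11548 at 6 h and 8784 and 7015 at 12 h (-0.79 ± 0.21). Both enzymes were lower at 12 h in each sex and did not pass (adjusted p = 0.999 with 7 arrays in limma).

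Whether females and males differed in their response at these times was tested as an interaction, with 1 array per sex and time. No gene passed in limma, 0 with 8 arrays (48 had an unadjusted p under 0.05) and 0 with 7 (113). For the leading genes the female minus male difference of the log2 response with 7 arrays was 0.42 ± 0.34 for Mt2 (95% interval -0.37 to 1.21), -0.43 ± 0.35 for Gadd45g (-1.25 to 0.39) and 0.73 ± 0.40 for Fkbp5 (-0.20 to 1.66). All 3 intervals include 0 and are wide. The leading genes of this test with 7 arrays were the muscle genes Ckm (2.63 ± 0.38), the creatine kinase, and Mb (2.53 ± 0.40), myoglobin, and in the other direction Mrps12 (-2.23 ± 0.35), a protein of the mitochondrial ribosome, with adjusted p = 0.475 each in limma. Gtse1, a cell cycle gene, followed (-2.39 ± 0.42, adjusted p = 0.663 in limma). Mrps12 had 105 on the remaining male vehicle array, 483 and 463 in DHT males, 394 and 420 in vehicle females and 395 and 307 in DHT females, so that its single male vehicle value stood apart. Ckm had 903 in the remaining male vehicle array, 345 and 360 in DHT males, 186 and 161 in vehicle females and 531 and 382 in DHT females, and the summed skeletal muscle signal was likewise 80359 on that male vehicle array, 45885 and 49328 in DHT males, 35411 and 35620 in vehicle females and 38956 and 60166 in DHT females. The part of muscle content in the differences of Ckm and Mb was not tested. Without male vehicle replicate 1, where the muscle-rich array is the only male vehicle array, limma called 1277 genes.

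The exocrine pancreas genes were set aside from the naming of genes, since they are high on 1 DHT array. Of 27 on the arrays, 25 were highest on the female 12 h array among the 8, and 24 among all 16. For 16 of them its signal was over 4 times the highest of the other 7 arrays. Cela2a, a pancreatic elastase, had 18798 there and 179 to 515 on the other 7, and Cel, the bile salt-stimulated lipase, had 12656 against 292 to 965. Of the 10 tested, 0 were called in limma in either fit, with median log2 differences of 0.71 (8 arrays) and 0.60 (7 arrays). The summed signal of 9 endocrine pancreas genes was 564 on that array and 417 to 577 on the others. Of these 9, 8 lay under the filter on low signals, so that the sum says little about endocrine transcripts. Without both this array and male vehicle replicate 2, Mt2 and Gadd45g were the 2 genes called.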

How the data were processed

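Messenger RNA of mouse retroperitoneal fat was measured on 16 single-colour Affymetrix arrays. The authors deposited linear signal intensities for each probe set. The submitters' processing notes name MAS5, with no version given in the sources used here. With 2% trimmed at both ends the mean of each array is 500, and a signal is thus measured against its own array. Precision is limited by the number of arrays.

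Of 12488 probe sets (66 controls), the platform annotation gave 1 gene to 10855, several to 396 (not used) and left 1237 unnamed here. Each of 8252 genes was represented by its brightest probe set on average (log2 scale), and 4951 genes at or above the 40th percentile (signal 182) were tested. The filter used the mean of all 16 arrays, DHT arrays included. A gene low in vehicle fat could therefore be tested through its DHT signals. The pseudocount in log2(signal + 16) makes differences of low genes appear smaller. limma 3.58.1 (R 4.3.3, lmFit and eBayes with a mean trend) was fitted with sex and DHT (5 residual degrees of freedom with 8 arrays, 4 with 7). Further fits used sex and single times, a sex by DHT term, and, for the other times, all 16 arrays. The code was also run on simulated data with a smaller spread than these arrays and large planted differences. That run does not measure the power of the tests here. A positive difference means higher in the group named first.

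Every gene past the threshold was named, with the smallest p up to 8 each way in the main comparison, up to 5 in the others and up to 4 in each gene list, exocrine pancreas genes set aside. Members, 37 gene lists (26 of functions, 11 of other cells) and tests were chosen with earlier results of these data known. Lists are described by counts and medians, with no test. Replicate numbers follow the order of deposit and pair no samples. Alternatives changed the pseudocount, filter, scaling, probe set choice, covariate and arrays used. Promoter sequences are RefSeq's. Detection calls and unnamed probe sets were not used here.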

Additional observations from a re-analysis of the deposited data

Results flagged for a closer look

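In each of 22 named genes and 11 sums of marker genes, the 4 vehicle and the 4 DHT arrays were examined for 1 array far from the other 3 on the log2 scale, by Dixon's ratio of the gap to the range at its 95% critical value. Of 66 such groups 5 had one, and chance gives about 1 in 20. Summed exocrine pancreas markers were high on the female 12 h array, at 146689 against 8719 to 9668 on the other 3 DHT arrays. Summed adrenal markers were high on the same array, at 6100 against 4487 to 4600, with 6469 on a female vehicle array. Summed erythrocyte markers were low on male vehicle replicate 2, at 5539 against 18717 to 23756 on the other vehicle arrays. Plagl1 was low on the same array, at 24.8 against 331 to 496. Pbrm1 was low on the male 6 h array, at 209 against 274 to 288 on the other DHT arrays.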

How the results depend on the processing

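With 8 arrays, 2 genes were called 6 and 12 h after DHT, and leaving out 1 array gave 0 to 5. With all 16 arrays 5 were called and without the sex covariate 1 (Mt2). The other planned settings (pseudocounts 1 and 64, no filter or the 60th percentile, quantile scaling, mean of probe sets, no trend, pancreas genes removed) gave 2 each. Settings added after seeing the data gave 6 with 15 arrays (Mt1 too), and, without male vehicle replicate 2 and a further array, 1 without male 12 h, 1 without female 6 h, 4 without female vehicle replicate 1 and 7 without female vehicle replicate 2. Leaving out 1 array gave 0 to 2 genes at 6 h, 0 to 1 at 12 h and 0 to 1277 for the sex difference. Of 604 values of 22 named genes under alternatives, 555 kept direction and side of the threshold and 12 reversed. Ephx1 (-0.45) was -1.20 to 0.024 with 1 array left out, the highest without male vehicle replicate 1. Plagl1 (0.21) was -0.55 to 0.68, the lowest without male vehicle replicate 2, and -0.078 as the mean of its probe sets. With male vehicle replicate 2 absent it was -0.56 with 15 arrays, -0.55 with quantile scaling, and, without a further array, -0.52 (male vehicle 1), -0.56 (male 6 h), -0.54 (male 12 h), -0.58 (female vehicle 1), -0.55 (female vehicle 2), -0.67 (female 6 h) and -0.46 (female 12 h). The cause was not tested. Mt2 was called in 21 of 28 alternatives, Gadd45g in 17, Fkbp5 in 8, Errfi1 and Cdkn1a in 4 each and Mt1 in 3. No paired analysis was possible because replicate numbers come from the order of deposit and each DHT group has 1 array.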
